A study of Mus musculus with 8 samples.

Results

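Matrix-degrading enzymes and their inhibitors were described in cultured mouse alveolar macrophages as a set of 10 genes among the 15521 genes of the deposited table: the metalloproteinase genes Mmp8, Mmp9, Mmp12, Mmp13, Mmp14 and Mmp19, the inhibitor genes Timp1, Timp2 and Timp3, and the heparanase gene Hpse. The genes were chosen by name with their TPM values and counts in the same 4 groups already known, so the levels and changes below are a description of these libraries and no independent evidence. Of the 10 genes, 8 were tested, and Mmp9 and Timp3 fell below the filter on low counts. Alveolar macrophages are the phagocytes that live in the airspaces. They came from lavage of mouse lungs, were selected by 2 h of adherence to plastic and were kept in medium with GM-CSF at 10 ng/ml in every group. Poly(I:C) with MSDC denotes cells given MSDC at 10 µM for 2 h and then Poly(I:C) at 5 µg/mL. Poly(I:C) with vehicle denotes cells given DMSO and then Poly(I:C) at the same dose. MSDC and vehicle denote cells given MSDC or DMSO and no Poly(I:C). The stimulation lasted 24 h by the sample labels and overnight by the series description. Poly(I:C) is a synthetic double-stranded RNA that stands in for viral RNA. MSDC begins the code names of several compounds known to target the carrier that brings pyruvate into mitochondria, and the rest of the name is not in the labels. The labels also give no mouse strain, age or sex, and do not say whether the 2 libraries of a group came from separate mice or cultures, so the p-values measure the spread between these libraries, which may be technical.

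Matrix metalloproteinases are zinc-dependent proteases that cleave collagens, elastin, proteoglycans and cell surface proteins, and most are made as inactive proenzymes that must be cut to become active. The tissue inhibitors of metalloproteinases (TIMPs) bind the active site of the mature enzymes, so RNA levels of either side do not measure proteolytic activity. Heparanase is an endoglycosidase that cuts heparan sulfate chains of basement membranes and cell surfaces. In the lung, macrophage elastase, the product of Mmp12, is known for its part in emphysema after cigarette smoke in mice.

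Each library held 28762425 to 29493223 counts, and 15 of 15 alveolar macrophage markers were at 1 TPM or more in every library, with summed levels of 50911 to 57232 TPM. With MSDC, 8 of the 15 were called higher and 5 lower, with or without Poly(I:C). Over all tested genes, 12.5% were called higher and 13.6% lower with Poly(I:C), and 11.1% and 12.4% without it. Ear1 and Krt79 were higher with MSDC than with vehicle (log2 changes 3.78 and 3.85), and Chil3 and Pparg were lower (-0.82 and -0.65). Fibroblast markers summed to at most 0.54 TPM and lymphocyte markers to at most 0.15 TPM. The neutrophil list, of interest because neutrophils store the Mmp8 and Mmp9 proteins, had 6 of 13 genes in the table and summed to 33.4 to 44.2 TPM in Poly(I:C) with MSDC, 30.01 to 30.75 TPM in Poly(I:C) with vehicle, 39.8 to 48.7 TPM with MSDC and 27.9 to 34.3 TPM with vehicle. Most of that was S100a8, which was higher with MSDC than with vehicle (log2 fold change 0.60, SE 0.18, edgeR adjusted p = 0.0242). With Poly(I:C) in both groups S100a8 was not called (0.39, adjusted p = 0.142). Csf3r and Cxcr2, also tested, went the other way and were not called. Their changes with MSDC were -0.35 and -0.72 without Poly(I:C), and -0.72 and -1.10 with it. The granule gene Ltf had at most 7 counts in a library, Camp at most 2 and Ngp at most 1. The list of monocyte and interstitial macrophage markers, 7 of 8 of them in the table, summed to 4.56 to 5.15 TPM in Poly(I:C) with MSDC, 6.99 to 8.83 TPM in Poly(I:C) with vehicle, 4.62 to 6.41 TPM with MSDC and 8.38 to 10.05 TPM with vehicle. Within it Ccr2 was lower with MSDC, both with Poly(I:C) (-1.79, SE 0.31, adjusted p = 0.000323) and without it (-2.11, SE 0.32, adjusted p = 0.000113). Lyve1, also tested, went the other way (2.19 with Poly(I:C) and 1.52 without it) and was not called. Changes of C1qa (-0.89 and -0.35) and C1qb (-0.11 and -0.70), in the same order, were not called either. The monocyte gene Ly6c2 had at most 7 counts in a library and Cx3cr1 at most 3. Epithelial markers summed to 22.4 to 37.6 TPM, most of it Cdh1, which was lower with MSDC than with vehicle (-0.32, SE 0.08, adjusted p = 0.00467) and was not called for MSDC with Poly(I:C) in both groups (-0.13, adjusted p = 0.259). Cdh1 was also lower with Poly(I:C), in MSDC-treated cells (-0.34, adjusted p = 0.0135) and in vehicle-treated cells (-0.53, adjusted p = 0.000152). The other tested epithelial markers were not called. With MSDC, Scgb1a1 went up (0.50 with Poly(I:C), 0.38 without it) and Epcam and Foxj1 went down. Ager went up with MSDC in the presence of Poly(I:C) (1.08) and down without it (-0.55). With Poly(I:C), Ager went up in MSDC-treated cells (0.76) and down in vehicle-treated cells (-0.86). Scgb1a1, Epcam and Foxj1 went down in both. The part of these cells in the results below was not tested. In these bulk samples fewer cells of a type and less RNA per cell cannot be told apart.

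Mmp13, Mmp12 and Mmp8 lie in that order within 1 cluster of 10 metalloproteinase genes on chromosome 9, which spans positions 7272514 to 7699585 (427.1 kb, GRCm38.p6, RefSeq). The other members lie elsewhere: Mmp14 on chromosome 14 (54431598 to 54442456), Mmp19 on chromosome 10 (128790910 to 128800827), Timp1 on chromosome X (20870166 to 20874737), Timp2 on chromosome 11 (118301061 to 118355411) and Hpse on chromosome 5 (100679484 to 100719716). RefSeq promoter windows of 300 bases, 250 before and 50 from the start site on, were found for 8 of the 10 members. They are shown for the 5 enzyme genes that differed most between MSDC and vehicle or between Poly(I:C) and no Poly(I:C), because all 5 were called lower with MSDC and their start regions differ in motifs and base composition. Sequences run 5′ to 3′ on the gene's strand, the start site is position 251, and capitals mark an AP-1 motif (TGANTCA) or a TATA box (TATAAA), searched on both strands.
Mmp12, the downstream one of its annotated start sites, chr9:7347124-7347423, plus strand: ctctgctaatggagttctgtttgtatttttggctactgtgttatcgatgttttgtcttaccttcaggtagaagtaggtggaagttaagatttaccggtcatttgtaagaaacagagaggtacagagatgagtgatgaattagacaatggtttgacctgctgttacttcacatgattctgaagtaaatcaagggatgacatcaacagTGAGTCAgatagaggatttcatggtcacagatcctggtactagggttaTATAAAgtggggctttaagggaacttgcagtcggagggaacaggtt
Mmp13, chr9:7272264-7272563, plus strand: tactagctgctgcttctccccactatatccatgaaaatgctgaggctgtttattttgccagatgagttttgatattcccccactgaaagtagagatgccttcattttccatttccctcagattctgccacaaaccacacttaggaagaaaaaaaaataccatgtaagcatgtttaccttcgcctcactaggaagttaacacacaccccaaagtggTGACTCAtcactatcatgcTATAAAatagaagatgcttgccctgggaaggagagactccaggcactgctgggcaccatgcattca
Mmp8, chr9:7558179-7558478, plus strand: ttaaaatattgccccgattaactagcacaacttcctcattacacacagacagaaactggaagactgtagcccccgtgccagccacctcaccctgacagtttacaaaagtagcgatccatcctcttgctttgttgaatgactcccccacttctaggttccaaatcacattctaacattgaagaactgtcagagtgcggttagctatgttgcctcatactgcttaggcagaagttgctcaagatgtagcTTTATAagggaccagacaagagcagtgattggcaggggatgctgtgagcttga
Mmp14, chr14:54431348-54431647, plus strand: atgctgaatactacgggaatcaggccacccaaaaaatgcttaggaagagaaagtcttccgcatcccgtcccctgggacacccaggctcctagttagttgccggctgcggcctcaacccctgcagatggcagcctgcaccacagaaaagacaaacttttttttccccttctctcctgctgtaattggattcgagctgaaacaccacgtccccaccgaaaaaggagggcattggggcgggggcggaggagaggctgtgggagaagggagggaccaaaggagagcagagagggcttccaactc
Hpse, chr5:100719667-100719966, minus strand: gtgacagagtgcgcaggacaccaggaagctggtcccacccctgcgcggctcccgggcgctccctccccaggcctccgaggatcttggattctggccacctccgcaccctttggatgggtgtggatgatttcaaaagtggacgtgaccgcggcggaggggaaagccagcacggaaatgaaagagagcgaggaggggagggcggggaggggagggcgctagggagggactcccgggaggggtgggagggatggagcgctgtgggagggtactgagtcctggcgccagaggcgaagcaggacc

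The Mmp12 window held TGAGTCA with its first base 44 bases before the start site and the letters TATAAA at positions 255 to 260, past the start site. The other annotated Mmp12 window (chr9:7344147-7344446) held neither motif. The Mmp13 window held TGACTCA 35 bases before the start site and TATAAA 16 bases before it. The Mmp8 window held the letters TATAAA on the opposite strand at positions 248 to 253, across the start site. The windows of Mmp14, Hpse, Timp1, Timp2 and Timp3 held neither. Among all 32851 windows, 7.81% held the AP-1 motif and 13.6% the TATA box, and a match in the letters shows no binding. The windows also differed in base composition. Those of Mmp12, Mmp13 and Mmp8 printed above had 3, 1 and 4 CpG dinucleotides and 40.7, 43.7 and 46.0% G and C. The other Mmp12 window had 0 CpG and 38.7% G and C. Those of Mmp14 and Hpse had 10 and 19 CpG and 56.0 and 67.0% G and C. Those of Timp1, Timp2 and Timp3 had 8, 25 and 24 CpG and 55.0, 68.7 and 67.0% G and C. The median window had 7 CpG and 52.7% G and C.

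With MSDC, all 8 tested members were lower than with vehicle, most of all Hpse (11.1-fold), Mmp12 (7.40-fold) and Mmp8 (log2 change -2.60). The same contrast called 12.4% of all tested genes lower and 11.1% higher. Mmp12, Mmp13 and Hpse were higher with Poly(I:C), both in MSDC-treated and in vehicle-treated cells, by log2 changes between 0.31 and 1.79. The call for Mmp12 in vehicle-treated cells was not kept in every alternative fit. Nor were the calls for Mmp13 and Mmp19 with MSDC against vehicle. The inhibitor gene Timp2 was lower with MSDC by a log2 change of -1.45, and Mmp19 by -0.25. Changes are given as log2 fold changes from edgeR's quasi-likelihood test with Benjamini-Hochberg adjustment over 11621 genes, with a call at an adjusted p under 0.05, and levels as TPM, which allows genes to be compared per length.

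**Figure D1:**
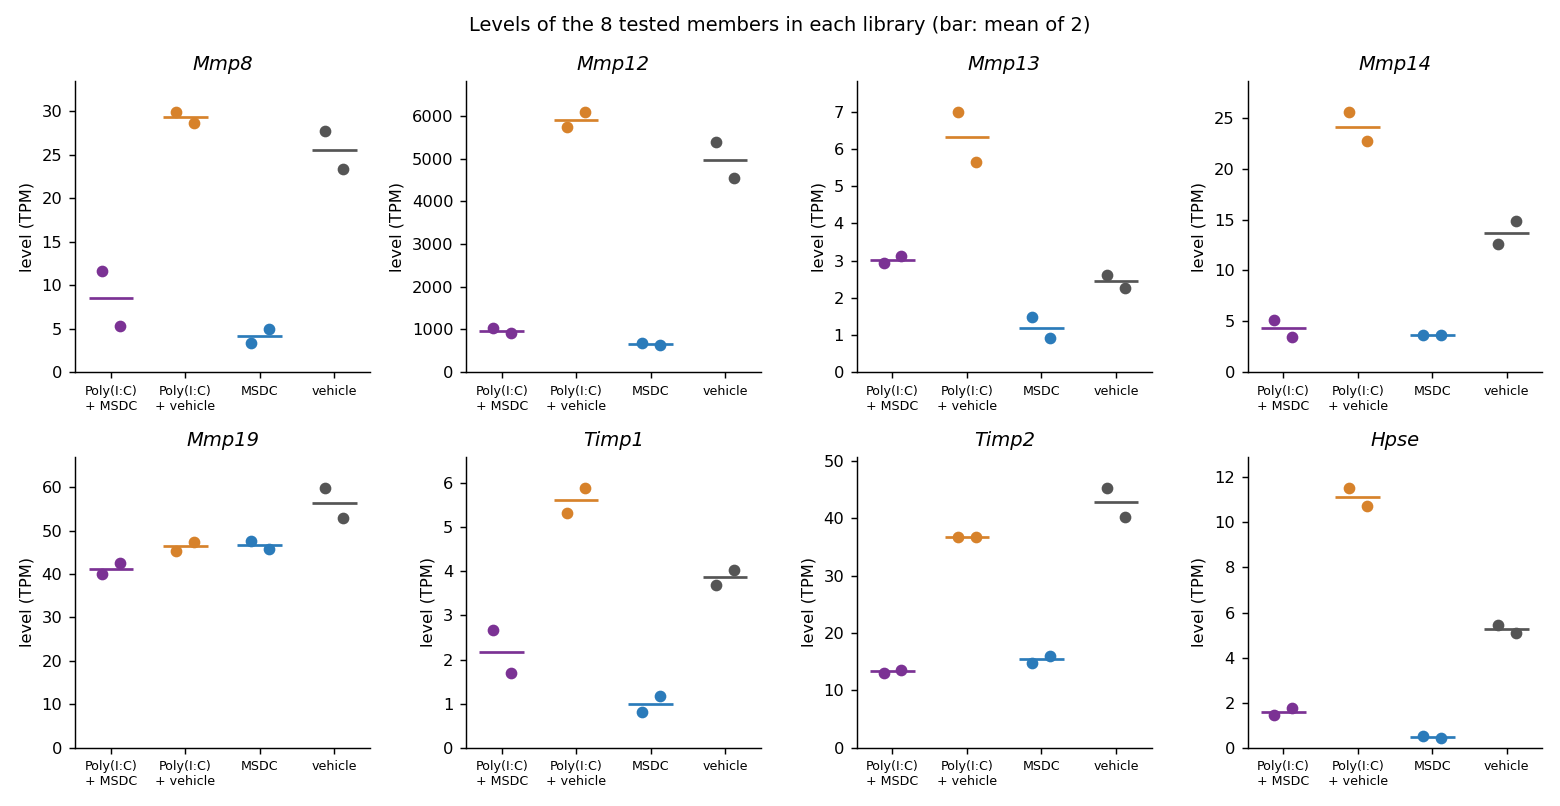
TPM of each of the 8 tested members (y axes, each from 0) in the 4 groups, with 1 point per library and a bar at the mean of 2. The bars of the MSDC groups lie below those of the vehicle groups in the same state of stimulation. The share of all genes that do so was not counted. Mmp19 stays between 39.99 and 59.8 TPM in all libraries.

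Mmp12, encoding macrophage elastase, was the most abundant metalloproteinase transcript. It stood at 1036 and 909 TPM in Poly(I:C) with MSDC, 5731 and 6088 TPM in Poly(I:C) with vehicle, 681 and 634 TPM with MSDC, and 5386 and 4549 TPM with vehicle. No groups overlapped, and the 4 libraries without MSDC were far above the 4 with it. By TPM it was ranked 13 to 16 among all genes in the 4 libraries without MSDC, and 130 to 218 in those with MSDC. Its share of all counts was 0.0945 and 0.0822% in Poly(I:C) with MSDC, 0.533 and 0.561% in Poly(I:C) with vehicle, 0.0621 and 0.0590% with MSDC, and 0.489 and 0.428% with vehicle. The log2 fold change was -2.89 for MSDC against vehicle (SE 0.08, adjusted p = 5.73e-13), a 7.40-fold lower level. With Poly(I:C) in both groups it was -2.63 (SE 0.08, adjusted p = 1.76e-12). Mmp12 rose with Poly(I:C) in MSDC-treated cells (0.57, SE 0.07, adjusted p = 7.22e-05) and in vehicle-treated cells (0.31, SE 0.07, adjusted p = 0.0102). The last call was lost without the second library of Poly(I:C) with vehicle (0.25), and values ranged from 0.21 to 0.41 when 1 library was left out. It was also lost with limma on log2(TPM + 1) and log2(TPM + 0.1).

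Mmp8, the neutrophil collagenase, had 11.6 and 5.32 TPM in Poly(I:C) with MSDC, 29.9 and 28.7 TPM in Poly(I:C) with vehicle, 3.29 and 4.93 TPM with MSDC, and 27.7 and 23.4 TPM with vehicle. The 2 libraries of Poly(I:C) with MSDC were far apart, the lower of them close to the MSDC group. Mmp8 fell with MSDC, with a log2 change of -2.60 without Poly(I:C) (SE 0.25, adjusted p = 1.03e-06) and of -1.82 with it (SE 0.23, adjusted p = 1.7e-05). The value with Poly(I:C) was -2.50 without the first library of Poly(I:C) with MSDC and -1.36 without the second. It was called higher with Poly(I:C) in MSDC-treated cells (1.04, SE 0.27, adjusted p = 0.0309). That call rested on single libraries: it was lost without the first library of Poly(I:C) with MSDC (0.36, adjusted p = 0.527) and without the first MSDC library (0.77, adjusted p = 0.311). In vehicle-treated cells the change with Poly(I:C) was 0.26 (SE 0.21, adjusted p = 0.505), not called.

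Mmp13, encoding the main interstitial collagenase of rodents, was scarce. It had 2.93 and 3.12 TPM in Poly(I:C) with MSDC, 6.99 and 5.66 TPM in Poly(I:C) with vehicle, 1.47 and 0.91 TPM with MSDC, and 2.62 and 2.27 TPM with vehicle. No groups overlapped, and each Poly(I:C) group lay above its unstimulated counterpart. Poly(I:C) was followed by a log2 change of 1.35 in MSDC-treated cells (SE 0.23, adjusted p = 0.00121) and of 1.43 in vehicle-treated cells (SE 0.20, adjusted p = 9.84e-05). MSDC was followed by a change of -1.10 with Poly(I:C) (SE 0.19, adjusted p = 0.000414) and of -1.02 without it (SE 0.24, adjusted p = 0.00478). The last value rested on 58 and 37 counts in the MSDC libraries, and was -0.73 without the second of them (adjusted p = 0.0762).

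Mmp14 encodes a membrane-bound collagenase (MT1-MMP) that also activates pro-MMP2 in a complex with TIMP2. It had 5.13 and 3.49 TPM in Poly(I:C) with MSDC, 25.6 and 22.7 TPM in Poly(I:C) with vehicle, 3.65 and 3.64 TPM with MSDC, and 12.6 and 14.8 TPM with vehicle. In MSDC-treated cells the 2 groups overlapped, and in vehicle-treated cells the Poly(I:C) libraries were both above the others. Mmp14 rose with Poly(I:C) in vehicle-treated cells (0.87, SE 0.13, adjusted p = 0.000262). In MSDC-treated cells the change was 0.24 (SE 0.17, adjusted p = 0.542), and without the first library of Poly(I:C) with MSDC it was -0.07. Mmp14 fell with MSDC, with a log2 change of -2.52 with Poly(I:C) (SE 0.15, adjusted p = 2.98e-09) and of -1.89 without it (SE 0.15, adjusted p = 1.4e-07).

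Mmp19, a secreted metalloproteinase that cleaves basement membrane components, was the member least changed by MSDC. It had 39.99 and 42.5 TPM in Poly(I:C) with MSDC, 45.4 and 47.4 TPM in Poly(I:C) with vehicle, 47.6 and 45.6 TPM with MSDC, and 59.8 and 52.9 TPM with vehicle. The vehicle libraries were highest, and Poly(I:C) with vehicle overlapped with MSDC. Mmp19 was called lower with MSDC than with vehicle (-0.25, SE 0.07, adjusted p = 0.0148) and lower with Poly(I:C) in vehicle-treated cells (-0.22, SE 0.07, adjusted p = 0.0468). The call for MSDC was lost without any 1 of the first MSDC, second MSDC or first vehicle libraries (adjusted p = 0.063, 0.0964 and 0.0835). The call for Poly(I:C) was lost in 6 of the 8 fits that left out 1 library, where the adjusted p ranged up to 0.211, and with the replicate number as a block (adjusted p = 0.0636). With Poly(I:C) in both groups the change with MSDC was -0.19 (SE 0.07, adjusted p = 0.0546), which was called when only those 2 groups entered the fit (adjusted p = 0.0392) or when either vehicle library was left out (adjusted p = 0.0212 and 0.0211). Its exons share 789 of 3533 bases with Tmem198b on the opposite strand, which had 198 to 265 counts and was not called in any comparison. The sources used here do not say whether counting used strand, so reads of the 2 genes over those bases cannot be told apart. Tmem198b, and Syn1 below, were chosen after their values were seen.

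Mmp9, encoding gelatinase B, had 0 counts in 7 libraries and 2 counts in the second vehicle library. Its level was under the floor of 3 counts, 0.102 to 0.104 CPM (each count divided by its library's total and rescaled), in every library, and that floor covers counting error only.

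Of the inhibitors, Timp2, which inhibits most metalloproteinases and also takes part in activating pro-MMP2, was the most abundant. It had 13.1 and 13.5 TPM in Poly(I:C) with MSDC, 36.7 and 36.8 TPM in Poly(I:C) with vehicle, 14.7 and 16.04 TPM with MSDC, and 45.3 and 40.3 TPM with vehicle. No groups overlapped, and the MSDC groups were lowest. Timp2 fell with MSDC, with a log2 change of -1.5 with Poly(I:C) (SE 0.08, adjusted p = 1e-09) and of -1.45 without it (SE 0.08, adjusted p = 1.38e-09). With Poly(I:C) the changes were -0.21 in MSDC-treated cells (SE 0.08, adjusted p = 0.185) and -0.16 in vehicle-treated cells (SE 0.07, adjusted p = 0.204), neither called.

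Timp1, the inducible inhibitor, had 33 and 21 counts (2.66 and 1.70 TPM) in Poly(I:C) with MSDC, 68 and 74 counts (5.33 and 5.89 TPM) in Poly(I:C) with vehicle, 10 and 15 counts (0.81 and 1.18 TPM) with MSDC, and 45 and 52 counts (3.70 and 4.02 TPM) with vehicle. No groups overlapped, and these were the lowest counts among the tested members. Timp1 fell with MSDC, with a log2 change of -1.92 (SE 0.39, adjusted p = 0.00153), or -1.29 with limma on log2(TPM + 1), and, with Poly(I:C) in both groups, of -1.39 (SE 0.33, adjusted p = 0.00505), a call lost without the second library of Poly(I:C) with MSDC (-1.10, adjusted p = 0.0755). Poly(I:C) gave 1.14 in MSDC-treated cells (SE 0.42, adjusted p = 0.152) and 0.61 in vehicle-treated cells (SE 0.31, adjusted p = 0.248), neither called by edgeR, while limma on log2(TPM + 1) and log2(TPM + 0.1) called the value in MSDC-treated cells (adjusted p = 0.0362 and 0.0268). Timp1 lies inside Syn1 on the opposite strand and shares 0 of its 888 exon bases with it. Syn1 had 514 and 508 counts in Poly(I:C) with MSDC, 1039 and 1188 in Poly(I:C) with vehicle, 468 and 533 with MSDC, and 1563 and 1580 with vehicle. It was lower with MSDC, with log2 changes of -1.13 with Poly(I:C) and -1.62 without it, and lower with Poly(I:C) in vehicle-treated cells (-0.44, SE 0.09, adjusted p = 0.00334), where Timp1 was not called. Whether its reads enter the Timp1 count was not tested.

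Timp3, whose product binds to the matrix, had 0 and 4 counts in Poly(I:C) with MSDC, 3 and 0 in Poly(I:C) with vehicle, 6 and 3 with MSDC, and 8 and 2 with vehicle. The groups overlapped. Timp3 exons share 1733 of 8144 bases with those of Syn3 on the opposite strand. Syn3 had no row in the deposited table, and whether its reads enter the Timp3 count was not tested. In a fit without the filter on low counts Timp3 was not called in any of the 5 comparisons, with -0.12 for MSDC against vehicle (adjusted p = 1) and -1.61 for Poly(I:C) in vehicle-treated cells (adjusted p = 0.637).

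Hpse had 1.44 and 1.77 TPM in Poly(I:C) with MSDC, 11.53 and 10.73 TPM in Poly(I:C) with vehicle, 0.50 and 0.42 TPM with MSDC, and 5.45 and 5.10 TPM with vehicle. No groups overlapped, and the order of groups was the same as for Mmp12. The corresponding counts were 66 and 80, 542 and 493, 23 and 20, and 246 and 244, in that order of groups. Hpse fell with MSDC, with a log2 change of -3.48 without Poly(I:C) (SE 0.19, adjusted p = 2.02e-09), an 11.1-fold lower level and the 28th lowest change among the 11621 genes. On the log2(TPM + 1) scale of limma, which understates changes of low genes, that change was -2.10. With Poly(I:C) in both groups the change was -2.83 (SE 0.15, adjusted p = 1.04e-09), or 7.09-fold. It rose with Poly(I:C) by 1.79 in MSDC-treated cells (SE 0.23, adjusted p = 6.11e-05), or 0.83 on the scale of limma, and by 1.14 in vehicle-treated cells (SE 0.13, adjusted p = 1.16e-05).

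**Figure D2:**
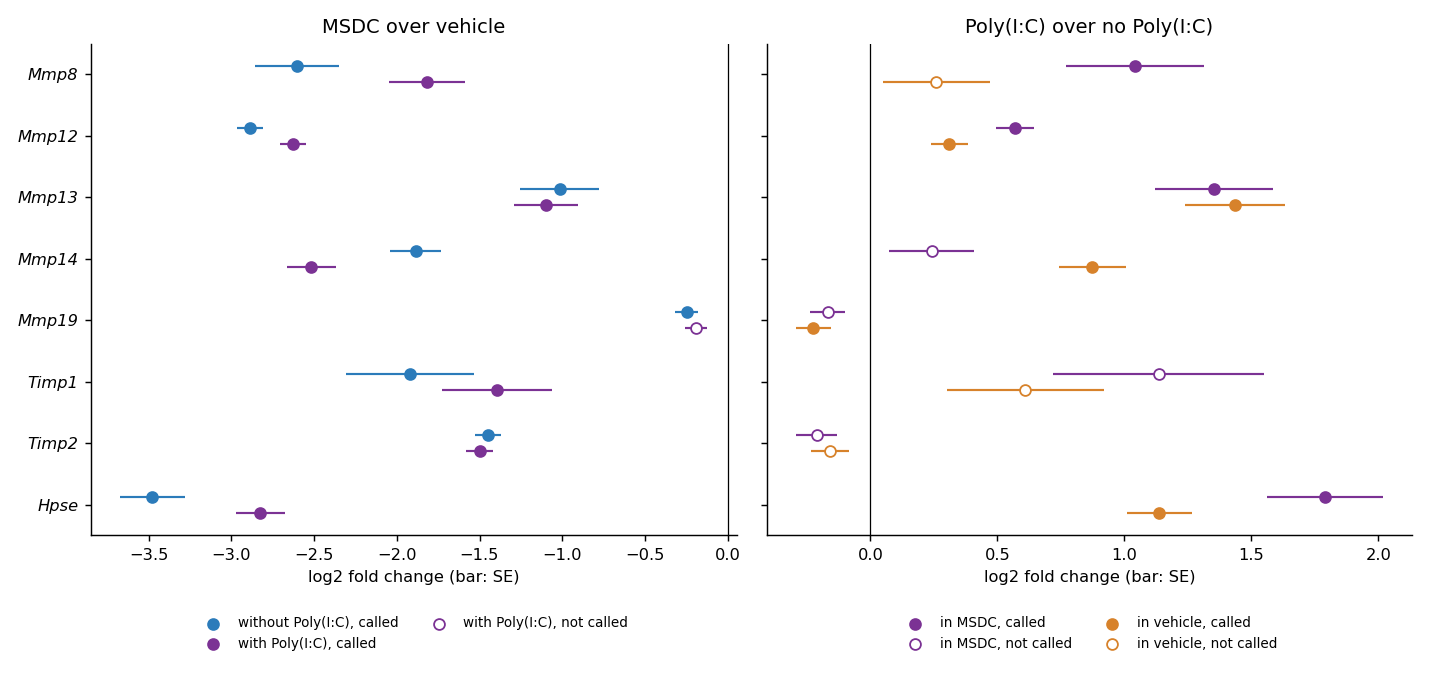
Log2 fold change of each tested member (x axes, bars: SE), for MSDC over vehicle with and without Poly(I:C) at the left, and for Poly(I:C) over none with MSDC and with vehicle at the right. Filled points were called at an adjusted p under 0.05, and all filled points at the left lie below 0.

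In counts, MSDC against vehicle called 8 of 8 tested members lower and 0 higher, where 12.4% of all tested genes were called lower and 11.1% higher. With Poly(I:C) in both groups it called 7 of 8 lower and 0 higher, against 13.6% lower and 12.5% higher over all genes. Poly(I:C) called 4 of 8 members higher and 0 lower with MSDC, against 4.82% higher and 1.5% lower over all genes. With vehicle it called 4 of 8 higher and 1 lower, against 7.52% higher and 4.1% lower over all genes. That all-gene split was 874 higher and 477 lower, and 729 higher and 867 lower when libraries were scaled to their totals alone. The members' median log2 changes were -1.90 for MSDC, -1.66 for MSDC with Poly(I:C), 0.81 for Poly(I:C) in MSDC-treated cells and 0.46 for Poly(I:C) in vehicle-treated cells, while the medians over all genes were within 0.0024 of 0. Since the members were chosen on these contrasts, nothing is read from the size of these shares, and the 4 comparisons share their groups.

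Whether the response to Poly(I:C) differed with MSDC was tested as an interaction, positive where the response was larger with MSDC. It called 0 of 8 members, against 0.224% of all genes at the same threshold. Before adjustment, 4 members had a p under 0.05: Mmp8 (0.78, SE 0.34), Mmp12 (0.26, SE 0.10), Hpse (0.65, SE 0.27) and Mmp14 (-0.63, SE 0.21). Their adjusted p were 0.732, 0.711, 0.711 and 0.562. By p, Mmp14, Mmp12, Hpse and Mmp8 ranked 202, 419, 471 and 606 among 11621 genes. Mmp11, which is not a member, ranked 679 with an edgeR p of 0.0442 before adjustment. The exact share of all genes under 0.05 before adjustment was not counted. Since the members were chosen with these data known, nothing is read from the 4. Among these 4 the value was negative for Mmp14 and positive for the other 3, of which Hpse turned to -0.12 with limma on log2(TPM + 1). DESeq2 and limma also called 0 members, while edgeR without the filter on low counts called 2, Mmp8 (adjusted p = 0.000871) and Mmp14 (adjusted p = 0.0235). Without the first library of Poly(I:C) with MSDC the value for Mmp8 was 0.10.

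Summed over all 17 metalloproteinase genes of the table, levels were 1098 and 964 TPM in Poly(I:C) with MSDC, 5841 and 6193 TPM in Poly(I:C) with vehicle, 738 and 691 TPM with MSDC, and 5490 and 4644 TPM with vehicle. Mmp12 made up 91.9 to 94.4% of the sum in the 4 libraries with MSDC and 97.9 to 98.3% in those without. With Mmp12 left out, the sum averaged 58.5 ± 4.31 TPM in Poly(I:C) with MSDC, 107.8 ± 3.03 TPM in Poly(I:C) with vehicle, 56.95 ± 0.976 TPM with MSDC and 99.8 ± 6.39 TPM with vehicle (SD, n = 2 each). So libraries with MSDC had lower summed levels also outside Mmp12, and no test was made on 2 against 2 libraries. The 4 Timp genes of the table summed to 15.7 and 15.3 TPM in Poly(I:C) with MSDC, 42.1 and 42.7 TPM in Poly(I:C) with vehicle, 15.6 and 17.3 TPM with MSDC, and 49.1 and 44.3 TPM with vehicle.

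The enzymes were also set against Timp2, the more abundant inhibitor, with no test of the ratios. Timp1 had a log2 change with MSDC of -1.92, close to that of Mmp14 (-1.89). The ratio of Mmp12 to Timp2 TPM was 79.4 and 67.2 in Poly(I:C) with MSDC, 156 and 165.5 in Poly(I:C) with vehicle, 46.2 and 39.6 with MSDC, and 118.9 and 112.9 with vehicle. All 4 groups were apart, and each MSDC group lay below its vehicle counterpart. The ratio of Mmp14 to Timp2 TPM was 0.393 and 0.258 in Poly(I:C) with MSDC, 0.696 and 0.617 in Poly(I:C) with vehicle, 0.248 and 0.227 with MSDC, and 0.279 and 0.368 with vehicle. Poly(I:C) with vehicle was the highest, and Poly(I:C) with MSDC overlapped with vehicle. A ratio of 2 RNA levels does not measure enzyme activity.

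**Figure D3:**
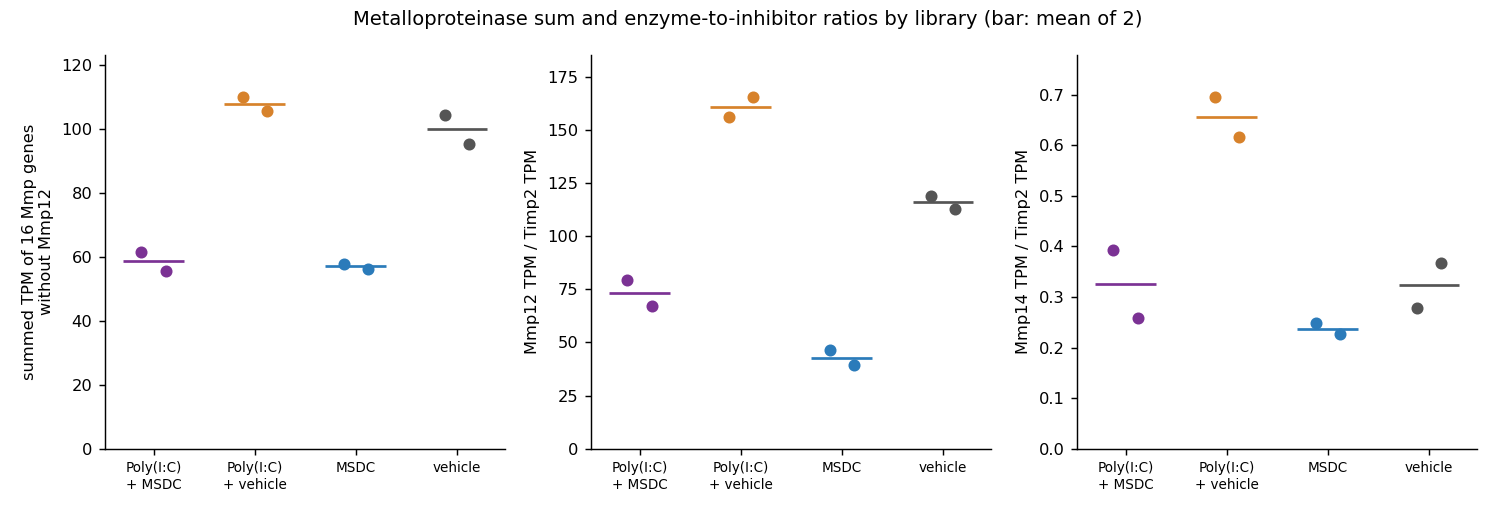
Summed TPM of the metalloproteinase genes without Mmp12, and TPM ratios of Mmp12 and Mmp14 to Timp2 (y axes, each from 0), by group, with 1 point per library and a bar at the mean of 2. The Mmp12 to Timp2 ratio reached 165.5 in Poly(I:C) with vehicle, against 118.9 with vehicle, and the sum without Mmp12 was lower in both groups with MSDC.

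Along the chromosome 9 cluster, 6 of the 10 metalloproteinase genes had a row in the table. Mmp13, Mmp12 and Mmp8 carried nearly all of its counts: Mmp3 had 0 counts in all 8 libraries, Mmp10 at most 3, and Mmp27 between 0 and 16. The flanking gene Dcun1d5, next to Mmp13, had 1155 to 1402 counts in all libraries. Tmem123 at the other end had 2938 and 2838 counts in Poly(I:C) with MSDC, 3709 and 3651 in Poly(I:C) with vehicle, 2718 and 2608 with MSDC, and 3753 and 3354 with vehicle. Between these neighbours, Mmp12 was read at 23899 to 27551 counts in Poly(I:C) with MSDC and at 155630 to 162025 in Poly(I:C) with vehicle.

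**Figure D4:**
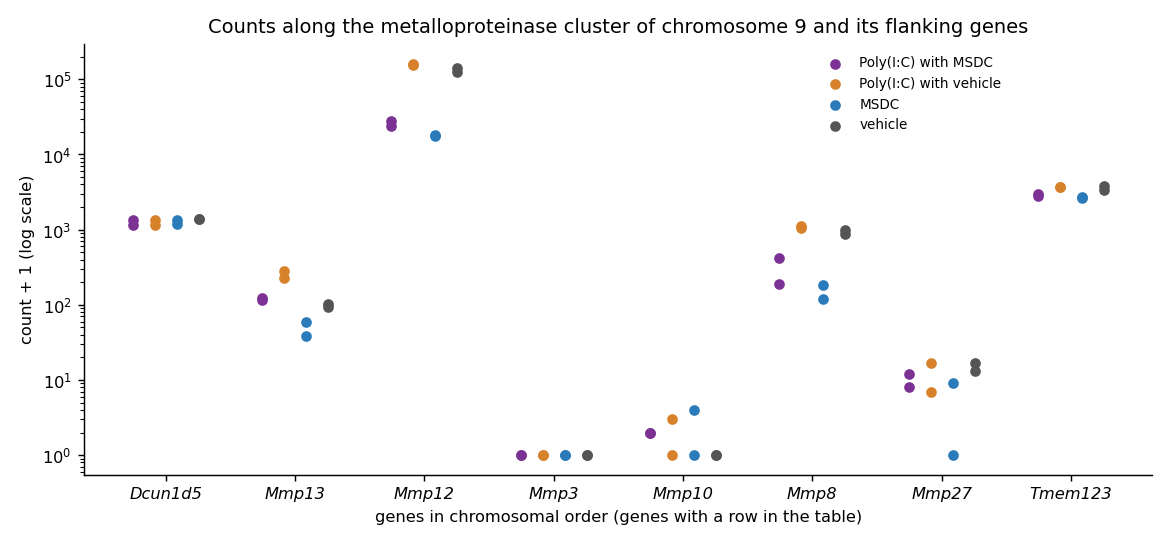
Count plus 1 on a log axis for genes of the chromosome 9 metalloproteinase cluster and its flanking genes, in chromosomal order, with 1 point per library coloured by group. Mmp12, Mmp8 and Mmp13 are the only cluster genes above 16 counts, and Dcun1d5 lies between 1155 and 1402 in all libraries.

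The remaining metalloproteinases were hardly detected. Of 17 listed, 11 were in the table and 6 were tested, with at most 23 counts in a library. Of these 6, edgeR called 0 in any comparison, against the all-gene shares given above. Among proteins that control metalloproteinases, 3 of 9 listed were tested. Furin, the protease that cuts pro-MMP14, had 50.9 and 53.0 TPM in Poly(I:C) with MSDC, 139.6 and 152.1 TPM in Poly(I:C) with vehicle, 64.0 and 62.3 TPM with MSDC, and 197.5 and 203.9 TPM with vehicle. No groups overlapped, and Furin fell with MSDC, with log2 changes of -1.5018 with Poly(I:C) (SE 0.06, adjusted p = 1.07e-10) and -1.62 without it (SE 0.06, adjusted p = 4.92e-11). It also fell with Poly(I:C), with changes of -0.28 in MSDC-treated cells (SE 0.06, adjusted p = 0.0122) and -0.40 in vehicle-treated cells (SE 0.06, adjusted p = 0.000368). Bsg, which encodes an inducer of metalloproteinases, was higher with MSDC than with vehicle (0.22, SE 0.06, adjusted p = 0.0186) and was not called with Poly(I:C) in both groups (0.13, SE 0.06, adjusted p = 0.157).

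In the plasminogen system, 4 of 9 listed genes were tested. Plau, encoding urokinase, which turns plasminogen into plasmin, a protease that can activate proenzymes of metalloproteinases, had 30.1 and 37.3 TPM in Poly(I:C) with MSDC, 134.7 and 134.6 TPM in Poly(I:C) with vehicle, 26.3 and 27.6 TPM with MSDC, and 107.4 and 109.3 TPM with vehicle. It fell with MSDC, with log2 changes of -2.04 with Poly(I:C) and -1.98 without it (SE 0.09 each, adjusted p = 8.33e-11 and 1.55e-10), and its receptor gene Plaur fell likewise (-1.15 and -1.11, SE 0.07 each, adjusted p = 3.37e-09 and 6.13e-09). Plau rose with Poly(I:C), in MSDC-treated cells (0.32, SE 0.09, adjusted p = 0.0439) and in vehicle-treated cells (0.37, SE 0.08, adjusted p = 0.00508).

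Of 13 ADAM and ADAMTS genes, 7 were tested. MSDC called 3 lower and 0 higher with or without Poly(I:C), and Poly(I:C) called 0. Over all tested genes, MSDC called 13.6% lower and 12.5% higher with Poly(I:C), and 12.4% lower and 11.1% higher without it. Poly(I:C) called 4.82% of all genes higher and 1.5% lower with MSDC, and 7.52% higher and 4.1% lower with vehicle. Adam8, a membrane protease of myeloid cells, fell, with log2 changes of -1.82 with Poly(I:C) and -2.21 without it (SE 0.17 each, adjusted p = 4.85e-07 and 9.48e-08). In the same order, Adam15 changed by -0.77 and -0.72 (SE 0.06 each), and Adam9 by -0.23 and -0.34 (SE 0.07 each). Of 8 cysteine cathepsins and cystatins, all tested, MSDC called 5 lower with Poly(I:C) and 4 lower without it, with 0 higher. These counts include cystatins, which inhibit cathepsins: Cst3 with and without Poly(I:C) (-0.32 and -0.21), and Cst7 with it (-3.35). Ctsb and Ctsl were not called with MSDC in either state. Ctss, encoding an elastin-cleaving cathepsin, changed by -0.64 with Poly(I:C) and -0.70 without it, Ctsk, encoding a collagen-cleaving one, by -0.53 and -0.67, and Ctsh by -0.83 and -0.76 (SE 0.05 to 0.06). Poly(I:C) called 3 of these genes higher with MSDC and 4 with vehicle, among them Ctss (0.53 and 0.47, SE 0.06 each).

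Among 15 tested enzymes that break down glycosaminoglycans, of 20 listed, MSDC called 0 higher and 7 lower with Poly(I:C), and 1 higher and 6 lower without it. Sgsh, the lysosomal enzyme that removes N-sulfate from heparan sulfate, had 0.71 and 0.91 TPM in Poly(I:C) with MSDC, 3.75 and 3.56 TPM in Poly(I:C) with vehicle, 0.94 and 1.03 TPM with MSDC, and 4.66 and 4.19 TPM with vehicle. It changed with MSDC by -2.21 with Poly(I:C) and -2.13 without it (SE 0.18 and 0.17, adjusted p = 1.13e-07 and 1.12e-07), and the extracellular sulfatase gene Sulf2 by -0.90 and -0.97 (SE 0.06 each). Poly(I:C) called 2 of the 15 higher and 3 lower with MSDC, and 3 higher and 2 lower with vehicle, and Sgsh was in neither count. Of 14 tested matrix proteins and proteoglycans, of 18 listed, MSDC called 3 higher and 4 lower with Poly(I:C), and 1 higher and 4 lower without it. Tgfbi, encoding a secreted matrix protein, changed by -1.88 with Poly(I:C) and -1.78 without it (SE 0.08 each, adjusted p = 1.78e-10 and 3.85e-10). Col4a2, encoding a chain of basement membrane collagen, rose by 1.99 with Poly(I:C) and 1.31 without it (SE 0.27 and 0.26, adjusted p = 3.29e-05 and 0.0012). Poly(I:C) called 2 of the 14 higher and 0 lower with MSDC, and 3 higher and 1 lower with vehicle, the one lower being the fibronectin gene Fn1 (-0.75, SE 0.11, adjusted p = 0.000158). The interaction called 0 genes in each of these lists, against 0.224% of all genes. For MSDC the all-gene shares were 12.5% higher and 13.6% lower with Poly(I:C), and 11.1% and 12.4% without it. For Poly(I:C) they were 4.82% higher and 1.5% lower with MSDC, and 7.52% and 4.1% with vehicle. Nothing is read from the list counts beside these shares.

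Across the 8 libraries, the genes whose log2 CPM ran most like a member's were Amigo2 for Mmp12 (Pearson r = 0.997), Klk1b11 for Mmp14 (0.998), Slc7a5 for Mmp8 (0.982), D17H6S56E-5 for Mmp13 (0.986), Mtss1 for Mmp19 (0.992), Edem2 for Timp1 (0.986), Alcam for Timp2 (0.998) and Gpr141 for Hpse (0.999), among 9316 candidates. Next to Alcam for Timp2 was Sgsh (0.998), and next to Gpr141 for Hpse was H2-Aa (0.997). The libraries fall into the 4 groups, so such values describe the group pattern. Among the members, Mmp8 and Timp1 were closest (0.970), then Mmp12 and Mmp14 (0.968), and Mmp13 and Mmp19 least alike (-0.07).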

How the data were processed

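Bulk RNA-seq of 8 libraries, 2 in each of 4 groups taken from the treatment labels, was analysed from 1 table deposited by the authors. Per the submitters' processing notes the tools were TopHat2 2.1.1 and Bowtie2 2.3.4 with Cuffdiff, on GRCm38 (mm10), with no role given to each. Strand handling in the counting is not stated in those notes or in the labels. The expected counts, named read counts per the file headers, are unscaled estimates by the authors, of which 5.95 to 7.19% per library were not whole, and they were rounded. The deposited FPKM values were not used, and the deposited TPM values, which the authors scaled for the length of a gene and the total of a library, give the levels here. The members and gene lists were chosen with earlier results of these data known. Genes passing filterByExpr (11621 of 15521) were scaled by TMM and tested in 1 edgeR 4.0.16 quasi-likelihood model with 4 group terms in R 4.3.3, two-sided. The test rested on 4 residual degrees of freedom and on 10.8 prior ones drawn from the spread of all tested genes. An adjusted p under 0.05 over all tested genes was the call. SE is the change divided by the square root of its F statistic. The procedure was tested on simulated data. Alternatives were DESeq2 1.42.0, limma 3.58.1 on log2(TPM + 1) and log2(TPM + 0.1), scaling to totals, no filter, only the compared groups, a replicate block and leaving out each library. The replicate numbers were not treated as pairs, because the labels do not say that equal numbers share an animal or day. Same-numbered libraries did not deviate together (correlations -0.026 to 0.051 over the pairs of groups), which does not show that they were unpaired. Counts of libraries in a group differed by more than sampling noise (chi-square per degree of freedom 4.26 to 14.7), and all were kept. Genes named are all members, up to 4 called genes of each list with the smallest p in a comparison, and the genes most correlated with each member, of those averaging at least 5 CPM in a group. Further genes of the marker, metalloproteinase and cathepsin lists are named to show other values of those lists. Promoter windows and gene positions come from RefSeq tables of GRCm38.p6, and exon overlaps from GENCODE on the same build. Of the plasminogen list, 1 gene is not reported here.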

Additional observations from a re-analysis of the deposited data

How the results depend on the processing

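Of 592 values of members recomputed under alternatives, 554 kept their direction and their side of the threshold, 21 lost the call, 8 gained one and 9 changed sign. Leaving out 1 library at a time gave 3 to 5 called members for Poly(I:C) in vehicle-treated cells, with 3 without the second library of Poly(I:C) with vehicle, 3 to 4 for Poly(I:C) in MSDC-treated cells, 6 to 8 for MSDC, 6 to 8 for MSDC with Poly(I:C), and 0 to 0 for the interaction. Without a filter on low counts the interaction called 2 members instead of 0. The 9 values that changed sign were not called: Mmp14 with Poly(I:C) in MSDC-treated cells (-0.0729 to 0.496 when 1 library was left out, the lowest without the first library of Poly(I:C) with MSDC), and in the interaction Timp2 (0.015 and 0.0077 with limma at a pseudocount of 1 and 0.1, 0.037 without MSDC replicate 2 and 0.0089 without vehicle replicate 2), Hpse (-0.12 with limma at a pseudocount of 1, against 0.65), Mmp13 (0.096 without Poly(I:C) with vehicle replicate 1 and 0.3034 without MSDC replicate 1, in a range of -0.3629 to 0.3034) and Mmp19 (-0.0056 without vehicle replicate 1, in a range up to 0.1172). The cause was not tested. Limma at a pseudocount of 1 also gave smaller changes with MSDC for Hpse (-2.10 without Poly(I:C) and -2.22 with it) and for Timp1 (-1.29 without Poly(I:C)), all still called. Calls for Mmp8 with Poly(I:C) in MSDC-treated cells were also lost with DESeq2 (adjusted p = 0.19) and limma (adjusted p = 0.124 and 0.108), and for Mmp12 with Poly(I:C) in vehicle-treated cells with limma (adjusted p = 0.108 and 0.105). With the replicate number as a replicate block, Mmp19 lost its call with Poly(I:C) in vehicle-treated cells (-0.22, adjusted p = 0.0636), and the numbers of members called were 4, 4, 8, 7 and 0 in the 5 comparisons. Over all genes, the count called for Poly(I:C) in vehicle-treated cells was 1351, and 848 to 1572 without 1 library, that for Poly(I:C) in MSDC-treated cells was 734, 1184 with only the compared groups in the fit and 423 to 1057 without 1 library, and the interaction called 26, 48 with DESeq2, 116 without the filter, 5 with limma at a pseudocount of 0.1 and 5 to 92 without 1 library. Counts under 100 in Timp1, and in Mmp13 and Hpse with MSDC, limit the precision of their changes.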
